A study of Mus musculus with 4 samples.

Results

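The 10 genes described here mark the contractile apparatus of vascular and visceral smooth muscle and the pericytes that wrap small vessels, and they were taken by symbol out of 38924 genes listed for each library. They are Acta2, Myh11, Tagln, Cnn1, Des, Myl9, Actg2, Smtn, Rgs5 and Notch3, and all 10 had enough reads to be tested. Bulk RNA came from a piece of kidney of female mice of the CB-17 SCID strain (Balb/c background), whose B and T cells do not mature, so both groups lack them. One group received saline (2 libraries) and the other preformed complexes of IgG with galactose-deficient IgA1 (Gd-IgA1), the autoantigen of IgA nephropathy (2 libraries). Injections went into the tail vein 3 times within 7 days, and kidneys were taken 1 day after the last. The labels give no age and do not tie each library to a separate mouse, so a p-value here reflects only how far these samples spread, which may be technical. Depth was 19675879 to 22791960 reads in genes per library. All 7 kidney identity markers (proximal tubule, thick ascending limb, distal tubule and podocyte genes) were read in every library, at a summed 11157 to 13206 CPM (a gene's reads per 1000000 reads of the library, whose size was scaled by the trimmed mean of M values).

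Smooth muscle contracts when calcium and calmodulin activate the myosin light chain kinase, which phosphorylates the regulatory light chain encoded by Myl9 and lets the heavy chain encoded by Myh11 pull on actin filaments. Serum response factor (Srf) with its partner myocardin switches on most of these genes through a DNA element called the CArG box. In the kidney the apparatus sits in the walls of arteries and arterioles, in the pelvis and, in part, in mesangial cells and pericytes. Interstitial pericytes that turn into myofibroblasts make alpha smooth muscle actin (Acta2), which is why that gene is read as a mark of fibrosis.

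The promoters of 7 members could be taken from RefSeq (GRCm38.p6), as 250 bases before and 50 after the start. A CArG box, 6 A or T bases between CC and GG, was searched for; it reads the same way on both strands. It was present in 1 of the 7 windows and in 1.63% of 32851 promoter windows of that length. Boxes with 1 inner base C or G were present in 2 of the 7 and in 8.50% of all windows. These 2 promoters are shown because they hold the matches, which stand in capitals. Distances are to the RefSeq start of each window. The gene coordinates given further on start at 34255336 for Acta2 (minus strand) and 156775420 for Myl9. These are not the RefSeq starts, so distances counted from them would differ. A match is a string of letters in this window and not a binding site shown by these data.

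Acta2 promoter, chr19:34255324-34255623, minus strand, with both boxes carrying 1 inner C or G, first bases 84 and 34 before the start: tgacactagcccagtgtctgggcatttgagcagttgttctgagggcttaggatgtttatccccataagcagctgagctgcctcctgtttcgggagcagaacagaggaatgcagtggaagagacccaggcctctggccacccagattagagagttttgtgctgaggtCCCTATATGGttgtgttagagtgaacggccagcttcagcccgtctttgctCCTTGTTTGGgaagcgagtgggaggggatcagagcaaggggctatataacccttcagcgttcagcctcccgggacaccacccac

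Myl9 promoter, chr2:156775214-156775513, plus strand, with the exact box 161 and the box carrying 1 inner G 99 bases before the start: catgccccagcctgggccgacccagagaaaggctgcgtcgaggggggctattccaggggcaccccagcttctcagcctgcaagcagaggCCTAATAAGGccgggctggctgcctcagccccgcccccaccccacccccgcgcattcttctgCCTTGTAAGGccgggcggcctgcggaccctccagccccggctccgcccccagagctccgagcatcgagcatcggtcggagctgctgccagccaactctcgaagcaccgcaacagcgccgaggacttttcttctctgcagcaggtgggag

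The windows of Cnn1, Des, Rgs5, Smtn and Notch3 held neither form, and windows of Myh11, Tagln and Actg2 were not used here.

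The comparison asks whether RNA of the contractile apparatus differed between kidneys given immune complexes and kidneys given saline. No member passed edgeR's quasi-likelihood test with Benjamini-Hochberg adjustment over 16334 genes (adjusted p = 0.99997 for each of the 10), and neither did any other gene (0%). Of the members, 7 had a higher fitted mean in immune complex kidneys and 3 a lower one, with a median log2 fold change of 0.49, against 51.9% higher and a median of 0.010 over all tested genes. For 5 members (Myh11, Tagln, Cnn1, Des and Rgs5) both immune complex libraries stood above both saline libraries, which 15.4% of all tested genes did (30.0% did not overlap in either direction). Unadjusted p-values were under 0.05 for 2 members (Cnn1 and Des), both higher, against 1.98% of all tested genes in that direction and 4.59% in either. The median fell to 0.16 without saline 1 and was 0.71 without saline 2.

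**Figure D1:**
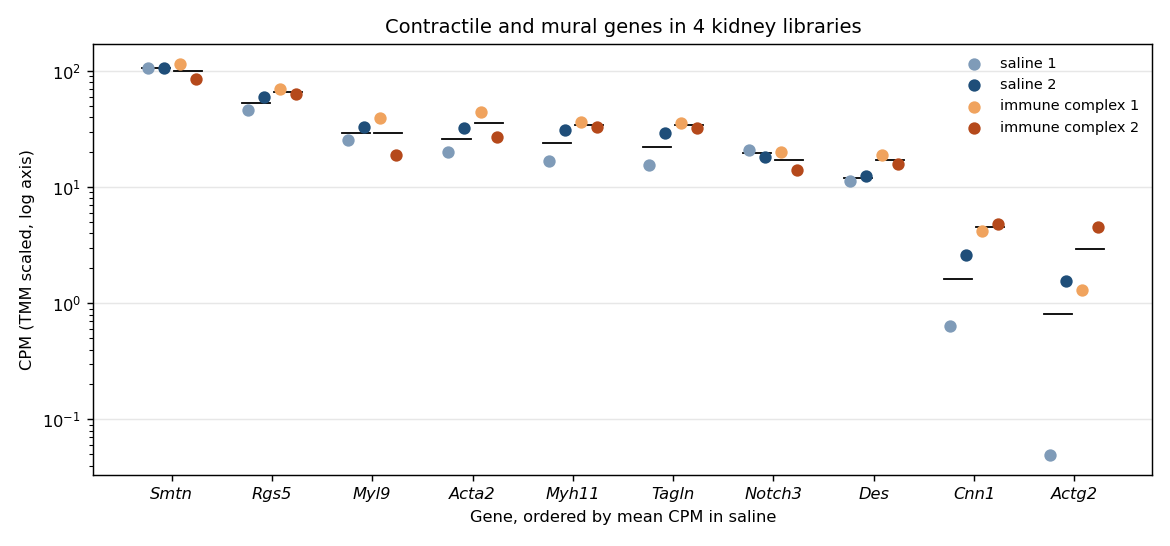
Level of each of the 10 genes in every library (points, CPM on a log axis) with the group means (black lines); genes are ordered by their mean in saline. Saline 1 is the lowest point for 7 genes, and the widest gaps are those of Cnn1 and Actg2.

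The actins were read very unequally. Acta2 (chromosome 19, 34241090 to 34255336, minus strand), the main actin of vascular smooth muscle, stood at 20.02 and 32.3 CPM in the saline pair, against 44.0 and 27.2 CPM in the immune complex pair. Immune complex 1 was high and saline 1 low, and the groups overlapped (log2 difference 0.45 ± 0.32 SE, unadjusted p = 0.204 in edgeR). With a library left out the log2 difference of Acta2 ran from 0.056 (without immune complex 1) and 0.14 (without saline 1) to 0.75 (without immune complex 2) and 0.82 (without saline 2). Actg2 (chromosome 6, 83512905 to 83536265, minus strand), the actin of gut and urinary tract muscle, had 1 and 33 reads in the saline pair, against 29 and 97 in the immune complex pair. That is 0.0492 and 1.56 CPM against 1.30 and 4.58 CPM, so one saline library almost lacked the gene and the groups overlapped (log2 difference 1.85 ± 1.07 SE, unadjusted p = 0.129 in edgeR). The saline libraries alone differed 31.7-fold for Actg2, with an exact counting interval of 5.31 to 1291 because 1 library held 1 read. Leaving out saline 2 gave Actg2 a log2 difference of 5.73 with an edgeR adjusted p of 8.34e-06, a value that rests on that 1 read, and leaving out saline 1 gave 0.91 (adjusted p = 0.99987). The lowest value, 0.68, came without immune complex 2. On exon reads alone, saline 1 held 0 reads of Actg2.

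The headers count only part of the Acta2 reads as unique, and the others are taken here as placed at several locations. Actin genes have related sequences, which were compared. In GENCODE M21 the coding sequences of Acta2 and Actg2 were identical at 84.2% of alignment positions, gaps included. Those of Acta2 and the skeletal actin gene Acta1 were identical at 85.4%. The cardiac actin gene Actc1 and the cytoplasmic actin genes Actb and Actg1 were nearly as close to Acta2, at 82.6%, 82.8% and 81.5%. The longest run without a difference between Acta2 and Actg2 was 29 bases. Their first coding bases are shown with the differing bases in capitals, since this is where the encoded protein ends diverge and Actg2 is 3 bases shorter.

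Acta2: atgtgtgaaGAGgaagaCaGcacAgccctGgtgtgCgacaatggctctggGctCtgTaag

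Actg2: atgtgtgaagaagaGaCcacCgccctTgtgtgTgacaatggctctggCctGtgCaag

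Reads placed at several locations made up 23.3% and 13.6% of Acta2 reads in the saline pair and 12.4% and 22.1% in the immune complex pair (Wilson 95% intervals 19.5 to 27.7%, 11.3 to 16.4%, 10.5 to 14.6% and 18.9 to 25.7%, counting error only). In reads, that was 95, 93, 122 and 127, while reads placed at 1 location ran from 312 to 860. With only the latter, Acta2 stood at 18.2, 33.1, 45.9 and 25.1 CPM and the log2 difference was 0.47 ± 0.37 SE. For Actg2 such reads were 1.25% of all. Acta1 had 0, 0, 0 and 1 reads. Which other sites the Acta2 reads fitted was not tested.

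**Figure D2:**
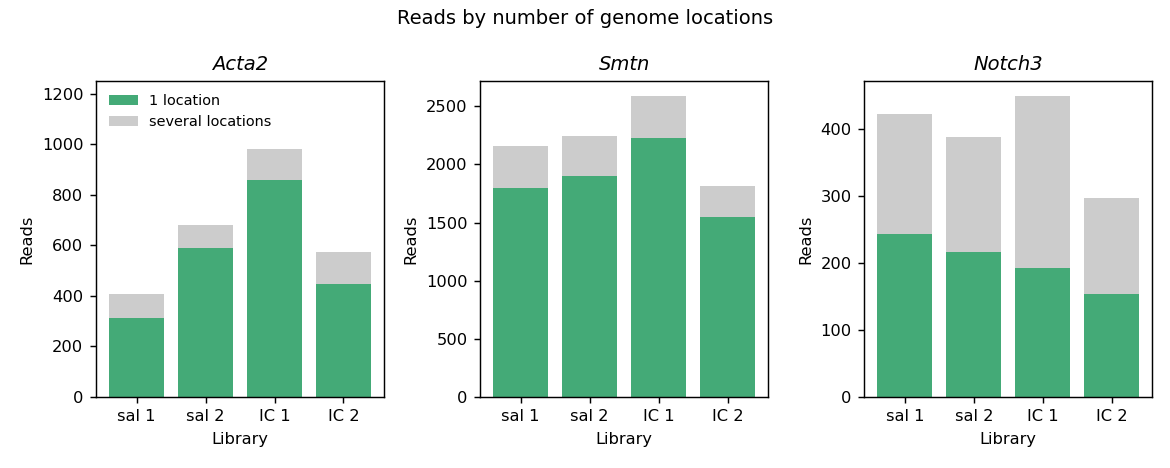
Reads of Acta2, Smtn and Notch3 per library (sal for saline, IC for immune complex). Those headed unique, read as placed at 1 genome location, are green, and the others, read as placed at several, are grey. The grey part of Acta2 stays between 93 and 127 reads, and for Notch3 the green part is lower in both immune complex libraries (192 and 154) than in both saline libraries (243 and 216).

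The myosin chains did not share a profile. Myh11 (chromosome 16, 14194527 to 14291408, minus strand), the smooth muscle heavy chain and the most specific marker of the type, stood at 16.8 and 30.9 CPM in the saline pair, against 36.3 and 32.8 CPM in the immune complex pair. Saline 1 was low and the other libraries lay close together, without overlap of the groups (log2 difference 0.53 ± 0.29 SE, unadjusted p = 0.116 in edgeR; 0.16 without saline 1 and 1.03 without saline 2). Myl9 (chromosome 2, 156775420 to 156781658, plus strand), the regulatory light chain, stood at 25.6 and 33.1 CPM in the saline pair, against 39.5 and 19.1 CPM in the immune complex pair. Its highest and lowest values both came from immune complex libraries, and the group means, 29.3 ± 5.29 and 29.3 ± 14.4 CPM (SD, n = 2 each), gave a log2 difference of -0.00 ± 0.35 SE. Leaving out immune complex 1 gave -0.62 and leaving out immune complex 2 gave 0.43 for Myl9.

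Among the proteins that bind and stabilise actin filaments, Tagln and Cnn1 were higher in both immune complex libraries and Smtn was not. Tagln (chromosome 9, 45929628 to 45936058, minus strand), which encodes the actin cross-linker transgelin or SM22, stood at 15.5 and 29.0 CPM in the saline pair, against 35.4 and 32.6 CPM in the immune complex pair (log2 difference 0.61 ± 0.30 SE, unadjusted p = 0.0845 in edgeR; 0.22 without saline 1 and 1.12 without saline 2). Cnn1 (chromosome 9, 22099281 to 22109630, plus strand), the calponin that restrains the myosin motor in differentiated muscle, had 13 and 55 reads in the saline pair, against 94 and 102 in the immune complex pair. In CPM that is 0.639 and 2.60 against 4.21 and 4.82, again with saline 1 far below the rest.

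The log2 difference of Cnn1 was 1.47 ± 0.59 SE (unadjusted p = 0.0434 in edgeR), from 0.79 without saline 1 (adjusted p = 0.99987) to 2.80 without saline 2 (adjusted p = 0.00277). Smtn (chromosome 11, 3517523 to 3540612, minus strand) encodes smoothelin and is transcribed in a long and a short form. It stood at 106.2 and 106.1 CPM in the saline pair, against 116.0 and 85.6 CPM in the immune complex pair. The saline values of Smtn differed by less than those of any other member, and the immune complex values lay on either side of them (log2 difference -0.07 ± 0.20 SE, unadjusted p = 0.725 in edgeR; 0.13 without immune complex 2 and -0.31 without immune complex 1). Intron reads were 9.27% of Smtn reads in saline 1 and 15.1%, 15.8% and 15.4% in saline 2, immune complex 1 and immune complex 2. A gene-level count does not separate its long and short forms.

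Des (chromosome 1, 75360329 to 75368579, plus strand), the muscle intermediate filament desmin that podocytes also make when injured, stood at 11.3 and 12.6 CPM in the saline pair, against 18.8 and 15.8 CPM in the immune complex pair. The saline values were close together and both immune complex values lay above them (log2 difference 0.54 ± 0.21 SE, unadjusted p = 0.0387 in edgeR). The log2 difference of Des ran from 0.41 to 0.65 over the 4 fits that left out a library. Desmin is also a skeletal muscle protein, and the 8 skeletal muscle markers summed to 5.903 and 8.28 CPM in the saline pair, against 4.26 and 10.5 CPM in the immune complex pair, with 3, 3, 4 and 1 of them at 0 reads. Myh1, picked after its values were seen, was the largest part of each sum, at 2.21 and 5.44 against 2.06 and 8.18 CPM. Of the 4 tested skeletal markers, the other 3 had lower fitted means in immune complex kidneys. Podocyte markers moved apart within the immune complex group, with the slit diaphragm gene Nphs1 at 71.6 and 33.7 CPM there and 41.0 and 45.3 CPM in saline. Their part in the value of Des was not tested.

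The 2 pericyte genes went different ways. Rgs5 (chromosome 1, 169655501 to 169695813, plus strand), a brake on G protein signalling and a common pericyte marker, stood at 45.9 and 59.6 CPM in the saline pair, against 70.0 and 62.9 CPM in the immune complex pair, without overlap (log2 difference 0.33 ± 0.19 SE, unadjusted p = 0.133 in edgeR; 0.16 without saline 1 and 0.52 without saline 2). Notch3 (chromosome 17, 32120820 to 32166880, minus strand), the receptor that keeps arterial muscle cells and pericytes differentiated, stood at 20.8 and 18.4 CPM in the saline pair, against 20.1 and 14.0 CPM in the immune complex pair. These overlapped, with a log2 difference of -0.19 ± 0.24 SE and an unadjusted p of 0.436 in edgeR (0.041 without immune complex 2 and -0.48 without immune complex 1).

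The value of Notch3 depends on which reads are counted, since 48.3% of its reads were placed at several locations, against 15.9% over all genes. Reads placed at 1 location numbered 243 and 216 in the saline pair, against 192 and 154 in the immune complex pair. On those reads Notch3 stood at 14.2 and 12.2 CPM against 10.3 and 8.62 CPM, no longer overlapping, with a log2 difference of -0.48 ± 0.22 SE (unadjusted p = 0.0672 and adjusted p = 0.99976 in edgeR). Introns held 74, 74, 124 and 82 of its reads with several locations, in the order saline 1, saline 2, immune complex 1 and immune complex 2. Gm17276, listed on the opposite strand over 21020 bases of Notch3, had 156, 196, 240 and 244 reads, and whether counting used strand is not stated by the labels or headers. Reads of that gene and of Notch3 introns therefore cannot be told apart. Whether Notch3 reads shared with Gm17276 would be counted as placed at 1 location is not stated either. Other genes listed across a member were Pcsk7, which shares 65 bases with Tagln, and 3 gene models over Des and Smtn with at most 1 read in a library.

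**Figure D3:**
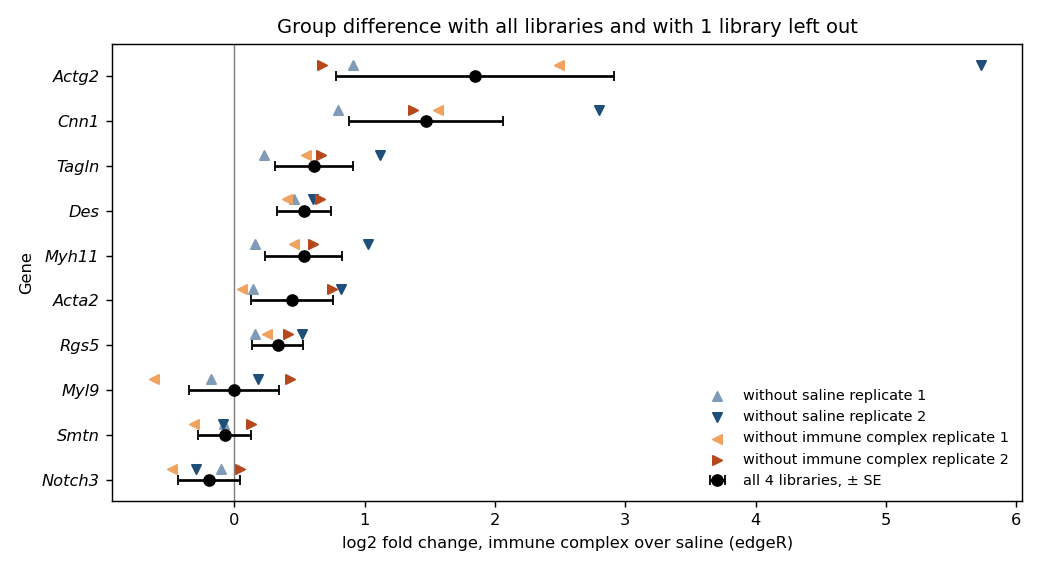
edgeR log2 fold change of each gene, immune complex over saline, with all 4 libraries (black, ± SE) and with each library left out (coloured triangles). For Actg2, Cnn1, Tagln and Myh11 the value is highest without saline 2, and for Myl9, Smtn and Notch3 the triangles lie on both sides of 0.

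For 7 of the 10 members the difference between the saline libraries was larger on the log2 scale than the difference between groups. The share of all tested genes with this property was not counted. Single libraries also vary more than group means do, so this count is not a trait of the members. Saline 1 was the lowest of the 4 libraries for 7 members (Acta2, Myh11, Tagln, Cnn1, Des, Actg2 and Rgs5), against 23.0% of all tested genes. On the log2 scale, saline 2 exceeded saline 1 by 0.69 for Acta2, 0.88 for Myh11, 0.91 for Tagln and 2.02 for Cnn1. Gaps as wide as those of Myh11 or Tagln were uncommon, since 3.97% and 3.64% of all tested genes had a larger one (after adding 0.5 CPM). Des, Smtn and Notch3 differed least of the members between the saline libraries, at 0.16, -0.00 and -0.18. Of all tested genes, 50.5%, 99.7% and 46.0% had a larger gap than these. The median absolute log2 difference over all tested genes was 0.16 between the saline and 0.32 between the immune complex libraries (0.5 CPM added). Within the immune complex group, replicate 2 was below replicate 1 for 8 members, by most for Myl9 (-1.05) and Acta2 (-0.70), while Cnn1 (0.19) and Actg2 (1.82) were higher in replicate 2.

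**Figure D4:**
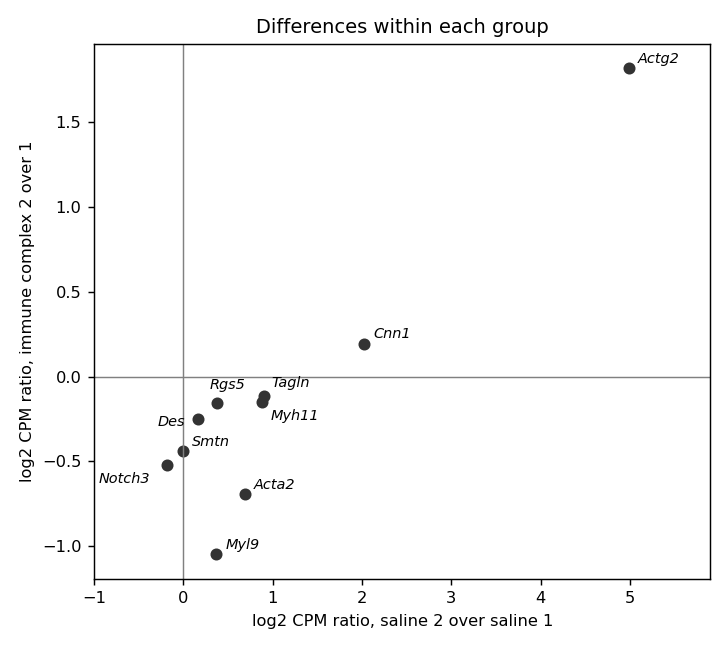
Log2 CPM ratio of saline 2 over saline 1 (horizontal) against immune complex 2 over 1 (vertical) for the 10 genes. Actg2 and Cnn1 are higher in the second library of both groups, and Myl9 and Acta2 are the lowest on the vertical axis.

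Markers of other tissues in a kidney piece also varied between libraries, not all in the same way. Saline 1 stood apart in the sums of adipocyte and collecting duct markers. In the sums of urothelial markers without Psca it was saline 2, and the mesothelial sums of the saline libraries were close. The 8 adipocyte markers summed to 54.7 and 466 CPM in the saline pair, against 1467 and 1027 CPM in the immune complex pair, each of the 8 lowest in saline 1, where the leptin gene Lep had 0 reads. Of 10 fibroblast genes 8 were lowest in saline 1, with the matrix proteoglycan Dcn at 10.4, 25.4, 28.7 and 34.97 CPM, although the receptor gene Pdgfra was highest there (46.1, 23.98, 17.1 and 18.3 CPM). The fibroblast sums were 148 and 171 CPM in the saline pair, against 160 and 184 CPM in the immune complex pair. The sums of the 7 collecting duct markers went the other way, at 2386 and 801 CPM in the saline pair, against 755 and 579 CPM in the immune complex pair. All 7 had a lower fitted mean in immune complex kidneys. Aqp2 carried most of the sums, at 1704, 544, 528 and 302 CPM in the same order. Scnn1g varied little, at 53.6, 42.8, 48.5 and 46.5 CPM. Aqp2 and Scnn1g were picked after their values were seen. The 7 urothelial markers summed to 52.0 and 79.8 CPM in the saline pair, against 15.5 and 15.3 CPM in the immune complex pair, and 6 of them were lowest in saline 1. The seventh, Psca, was highest there at 46.3 CPM, and without it the sums were 5.71 and 53.03 CPM in the saline pair, against 11.8 and 11.01 CPM in the immune complex pair. The 5 mesothelial markers summed to 35.1 and 34.2 CPM in the saline pair, against 18.6 and 22.0 CPM in the immune complex pair. Upk3b, also a urothelial gene, carried that drop, and the other 4 summed to 11.3, 20.6, 17.1 and 18.5 CPM in the same order of libraries. No gene of the fibroblast, collecting duct, urothelial or mesothelial lists was at 0 reads in any library. The part of these tissues in the values of the contractile genes was not tested. In bulk RNA, fewer cells of a type and less RNA per cell cannot be told apart.

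**Figure D5:**
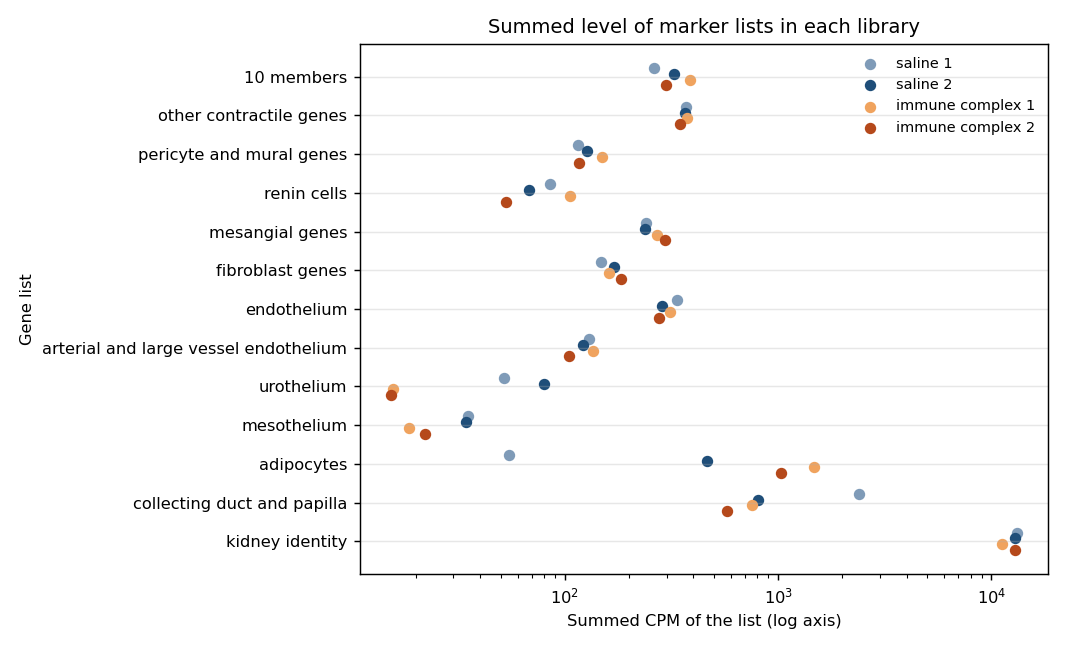
Summed CPM of each marker list per library (points, log axis). Saline 1 is the lowest point for the 10 contractile genes, adipocytes, fibroblasts and, by little, pericyte and mural genes. It is the highest for the collecting duct and, by less, for endothelium, mesothelium and kidney identity.

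Of 18 further contractile genes 15 had enough reads, and immune complex means were higher for 11 and lower for 4, none past the test and 0 with an unadjusted p under 0.05. For 5 of them both immune complex libraries stood above both saline libraries, and for 2 below, against the 30.0% of all tested genes without overlap. Their median log2 fold change was 0.13, and with a library left out it ran from 0.0086 (without immune complex 1) and 0.013 (without saline 1) to 0.24 (without immune complex 2). Tpm2, a tropomyosin of muscle, stood at 6.39 and 9.27 CPM in the saline pair, against 15.3 and 9.83 CPM in the immune complex pair (log2 difference 0.68 ± 0.31 SE). Synm, an intermediate filament partner of desmin, stood at 2.75 and 3.64 CPM against 5.06 and 4.68 CPM (log2 difference 0.61 ± 0.30 SE). Mylk, which encodes the light chain kinase and also a non-muscle form, stood at 88.7, 89.0, 97.0 and 83.1 CPM and showed no such shift. Pln and Kcnmb1, a calcium pump inhibitor and a potassium channel subunit of smooth muscle, had at most 5 reads in any library and were not tested. Mylk, Pln and Kcnmb1 were picked after their values were seen.

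Of the regulators, Srf had lower values in both immune complex libraries, opposite in direction to Myh11, Tagln and Cnn1. It stood at 9.49 and 7.00 CPM in the saline pair, against 3.94 and 4.77 CPM in the immune complex pair, without overlap (log2 difference -0.92 ± 0.28 SE, unadjusted p = 0.0151, adjusted p = 0.941 in edgeR). Its coactivator Mkl1, which moves to the nucleus when actin polymerises, stood at 21.4 and 17.7 CPM against 18.6 and 16.8 CPM. The muscle-specific coactivator Myocd, picked after its values were seen, had 3, 6, 7 and 7 reads and was not tested. Of the 7 tested genes on that list, 2 were higher and 5 lower (median log2 fold change -0.13), and none passed the test. With a library left out the median of that list ran from -0.22 (without immune complex 1) to -0.077 (without immune complex 2).

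Of 11 Notch pathway genes 2 were higher and 9 lower (median log2 fold change -0.10), none past the test. With a library left out that median ran from -0.24 (without immune complex 1) to -0.025 (without saline 1). Rbpj, the DNA-binding partner of activated Notch receptors, stood at 33.2 and 33.9 CPM in the saline pair, against 39.0 and 55.3 CPM in the immune complex pair, without overlap. Nrarp, a Notch target that feeds back on the pathway, stood at 8.46 and 9.70 CPM against 8.07 and 3.92 CPM. Heyl, a target of Notch3 in mural cells that was picked after its values were seen, stood at 4.53 and 5.35 CPM against 7.04 and 4.16 CPM and overlapped between groups.

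Pericyte and mural genes other than the members were higher for 10 of 15 and lower for 5 (median log2 fold change 0.18; none past the test, 0 with an unadjusted p under 0.05), and 9 of the 15 were lowest in saline 1. With a library left out that median ran from 0.11 (without immune complex 1) and 0.12 (without saline 1) to 0.30 (without immune complex 2). Mcam, an adhesion molecule of vessel walls, stood at 8.36 and 8.75 CPM in the saline pair, against 12.7 and 9.50 CPM in the immune complex pair. Gucy1b3, a subunit of the nitric oxide receptor that relaxes smooth muscle, stood at 5.51 and 5.11 CPM against 6.54 and 6.90 CPM. Renin cells, which are modified smooth muscle cells of the afferent arteriole, differed most within the treated group, with Ren1 at 82.5 and 65.9 CPM in the saline pair, against 103.3 and 51.7 CPM in the immune complex pair. Akr1b7, a reductase of those cells, stood at 2.51 and 1.80 CPM against 2.11 and 1.37 CPM.

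Of 6 mesangial genes 3 were higher and 3 lower, none past the test. The transcription factor gene Gata3, also made in the collecting duct, stood at 31.8 and 23.1 CPM in the saline pair, against 17.9 and 15.1 CPM in the immune complex pair. Fhl1, which encodes a LIM domain protein, stood at 111.5 and 116.9 CPM against 133.9 and 181.8 CPM. Of 6 endothelial genes 1 (Kdr) was lowest in saline 1, and none passed the test. The adhesion gene Pecam1 stood at 76.5 and 58.7 CPM in the saline pair, against 54.8 and 52.4 CPM in the immune complex pair. The large vessel marker Vwf stood at 14.7 and 6.62 CPM against 4.48 and 2.505 CPM, while Eln, the elastin of artery walls, stood at 3.84 and 5.49 CPM against 9.90 and 4.96 CPM.

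Compared per length, as the authors' RPKM values (reads scaled by exon length and by library size), Myl9 was the most abundant member, at a mean of 24.8 RPKM over the 4 libraries (15.8 to 32.7). Smtn followed at 20.4 RPKM (16.1 to 22.7), Acta2 at 17.1 (11.6 to 23.8), Tagln at 16.7 (9.26 to 20.9) and Rgs5 at 13.04 (10.4 to 15.1). The range of Rgs5 lay below those of Myl9 and Smtn, and Myl9 exceeded Smtn in 2 of 4 libraries. Myh11 at 4.25 RPKM (2.53 to 5.17) was below Rgs5 in every library, and Des at 3.82 RPKM (3.05 to 4.82) was below Myh11 in 3 of 4. Notch3 at 1.68 RPKM, Cnn1 at 1.27 RPKM and Actg2 at 1.12 RPKM came last, and Notch3 exceeded Cnn1 in 2 of 4 libraries.

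Ratios of RPKM within a library show which members kept step with the heavy chain. Tagln stood at 3.66 and 3.84 times Myh11 in the saline pair and 4.05 and 4.01 times in the immune complex pair, so their ratio hardly moved although Myh11 itself ranged 2.04-fold in RPKM. Acta2 stood at 4.58, 3.98, 4.61 and 3.11 times Myh11 in the same order, and Rgs5 at 4.12, 2.90, 2.92 and 2.84 times. Cnn1 stood at 0.110 and 0.243 times Myh11 in saline and at 0.337 and 0.415 times in immune complex libraries. Smtn stood at 8.98, 4.56, 4.23 and 3.41 times and Myl9 at 8.91, 6.18, 6.32 and 3.34 times, both highest in saline 1 and lowest in immune complex 2. These ratios describe 4 libraries and were not tested.

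The authors' deposited table holds all 10 members and calls none of them, while it calls 80 of its 16128 genes (0.496%). In the authors' deposited table, turned to immune complex over saline, the log2 fold change was 0.48 for Cnn1 (p = 0.0173, adjusted p = 0.776), 0.39 for Tagln, 0.36 for Des and 0.08 for Actg2. Before that turn, as saline over immune complex, all log2 fold changes in that table lie between -1.42 and 2.11. Its turned values for Cnn1 and Actg2 are much smaller than the 1.47 and 1.85 of the edgeR fit on the same reads. DESeq2 run here on those reads gave 1.47 for Cnn1 and 1.87 for Actg2. How the authors computed their fold changes is not stated in detail, and the source of the gap was not tested.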

How the data were processed

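Total RNA from a piece of kidney was made into Illumina libraries (2 saline, 2 immune complex) at a commercial provider, per the labels' protocols. GRCm38, STAR 2.5.2b and DESeq2 stand in the submitters' processing notes with no step assigned. The counter, its strand setting and its annotation are not stated there. Each sample's deposited table holds raw read counts per gene (total, unique, exon, intron), per the file headers. It also holds RPKM computed by the authors and gene and exon lengths in bases. The headers do not define unique, which is read here as placed at 1 location, and the other reads as placed at several. Whether reads shared with an overlapping gene count as unique is not stated either. A deposited table of the authors' comparison holds counts, a mean signal per gene, a log2 fold change, a score (the test statistic) and a p-value with its adjustment, per the file headers. The sign of that log2 fold change is that of saline over immune complex and was turned here.

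Total gene reads were compared with edgeR 4.0.16 under R 4.3.3 (filterByExpr, scaling by the trimmed mean of M values, quasi-likelihood test, Benjamini-Hochberg adjustment at 0.05 over all 16334 tested genes, no replicate block). The common biological coefficient of variation was 0.212, with 2 residual degrees of freedom. Standard errors are the fold change over the square root of its F statistic, and CPM use the scaled library sizes. The fit was tested on simulated data. Alternatives used exon reads, reads placed at 1 location, DESeq2 1.42.0, its size factors, limma-voom (limma 3.58.1), no filter, a replicate block and each library left out. Replicate numbers are shared between groups, but the labels do not say that they pair samples.

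The members, the gene lists and the tests were chosen with earlier results of these data known. The named genes are the 10 members and the 2 genes of lowest p in each of 15 other lists, not all printed. Others are marked as picked afterwards, besides Acta1, Actc1, Actb, Actg1, Gm17276 and Pcsk7, which a read assignment required. Promoters are from RefSeq (GRCm38.p6) and coding sequences from GENCODE M21. No list was given a set test.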

Additional observations from a re-analysis of the deposited data

How the results depend on the processing

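The number of genes called, 0 with all libraries, was 1 on reads placed at 1 location, 2 without a filter, 96 with DESeq2 and 0 with exon reads, DESeq2 size factors and limma-voom. It ran from 0 to 279 when 1 library was left out. Of the members, Cnn1 and Actg2 were called without saline 2 and no member under any other setting run. The count of members higher ran from 7 to 10 over all settings, and the median of their log2 fold changes from 0.16 (without saline 1) to 0.71 (without saline 2) with a library left out. Myl9 had a difference near 0 that changed sign on exon reads (0.021) and on reads placed at 1 location (0.0019). With a library left out Myl9 ran from -0.62 to 0.43, Smtn from -0.31 to 0.13 and Notch3 from -0.48 to 0.041; the cause was not tested. The other 7 members kept their direction under all 12 settings.

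With the replicate number as a block, 55 genes were called and no member. Differences between replicates 1 and 2 correlated at -0.13 between the groups over all tested genes, so crossed numbers were also tried, a choice made after seeing the data. That block called 160 genes and no member. With 2 libraries in a group, and 1 to 13 reads of Actg2 and Cnn1 in saline 1, depth and number both limit these values.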
